A study of Mus musculus with 6 samples.

Results

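The miR-181 family was followed in the nucleus accumbens (NAc) of mice trained with morphine or saline in conditioned place preference (CPP), a test in which animals come to prefer a chamber paired with a drug. Its members were every mature miRNA in the deposited count table with a name that starts miR-181a, miR-181b, miR-181c or miR-181d followed by a hyphen. This rule found 9 of 1364 miRNAs, and 8 of the 9 had at least 100 counts over all libraries. Adult male C57BL/6N mice of 7 to 8 weeks were conditioned for 6 days. The morphine group received 10 mg/kg morphine and saline injections in alternating sessions, the saline group received saline, and NAc tissue was taken 0.5 h after the test on day 7. Each group had 3 small RNA libraries. The mouse numbers in the deposited records amount to 2 per library and a figure legend gives 1, so a library may pool animals. These libraries are of whole NAc tissue, in which fewer cells of a type and less RNA per cell cannot be told apart.

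miRNAs are cut as a duplex from a hairpin precursor. The arm that stays in the silencing complex is the guide strand, and its seed, bases 2 to 8 from the 5′ end, pairs with target mRNAs, which are then repressed. miR-181 guide strands are the 5p arms. They are abundant in brain and in developing T cells. In cultured neurons, miR-181a was raised by dopamine signalling and repressed the AMPA receptor subunit GluA2, and miR-181a has been studied in the NAc in cocaine reward. The mouse genome carries the family as 3 clusters of 2 hairpins, so the 5p arms of miR-181a and miR-181b each come from 2 loci, while every 3p arm has its own locus.

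All 9 members were matched by name to RefSeq mature sequences (GRCm38.p6). The 4 guide strands are shown because they share a single seed, acauuca, printed in capitals, and differ only outside it.
miR-181a-5p: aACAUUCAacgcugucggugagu
miR-181b-5p: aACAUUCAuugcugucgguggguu
miR-181c-5p: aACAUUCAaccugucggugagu
miR-181d-5p: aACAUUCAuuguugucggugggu

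Positions are counted from 1 at the 5′ end of the first-named miRNA. miR-181b-5p differs from miR-181a-5p by A9U, C10U and A21G and by 1 added base at the 3′ end. miR-181c-5p lacks 1 base of miR-181a-5p, at position 11. miR-181d-5p differs from miR-181b-5p by C12U and by the loss of the last base. Where partners differ by 1 internal base, a read with a mismatch or gap there could be placed on either. How the authors' counting treated such reads is not given in the sources used here.

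The 5 passenger (3p) strands in the deposited count table are shown because they identify the locus. The 3p arm of Mir181d has no row there. The 5 strands carry 3 different seeds, in capitals, 1 of them shared by miR-181a-1-3p and miR-181c-3p and 1 by both miR-181b arms.
miR-181a-1-3p: aCCAUCGAccguugauuguacc
miR-181a-2-3p: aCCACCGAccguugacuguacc
miR-181c-3p: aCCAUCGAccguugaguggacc
miR-181b-1-3p: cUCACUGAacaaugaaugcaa
miR-181b-2-3p: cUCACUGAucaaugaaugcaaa

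miR-181a-2-3p differs from miR-181a-1-3p by U5C and U16C. miR-181c-3p differs from miR-181a-1-3p by U16G and U19G, and miR-181b-2-3p from miR-181b-1-3p by A9U and 1 added base.

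In GRCm38.p6, Mir181a-1 and Mir181b-1 lie on the plus strand of chromosome 1, at chr1:137966455-137966541 and chr1:137966639-137966718, with 97 bases between them. In GENCODE vM21 both lie in an intron of the non-coding gene Gm4258, and both overlap an exon of the lincRNA A430106G13Rik. Mir181a-2 (chr2:38852735-38852810) and Mir181b-2 (chr2:38853830-38853918) are 1019 bases apart on the plus strand of chromosome 2, inside an intron of Nr6a1, a nuclear receptor gene on the opposite strand. Mir181b-2 also overlaps an exon of Gm44144, again on the opposite strand. Mir181c (chr8:84178873-84178961) and Mir181d (chr8:84178716-84178787) are 85 bases apart on the minus strand of chromosome 8, in an intron of Nanos3, a germ cell gene on that strand. The hairpins of the chromosome 1 cluster are shown because the ratio of their passenger strands did not overlap between the groups. Capitals mark the 5p and the 3p arm.
Mir181a-1: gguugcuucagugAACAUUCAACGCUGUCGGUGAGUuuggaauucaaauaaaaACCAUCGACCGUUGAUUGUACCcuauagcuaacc
Mir181b-1: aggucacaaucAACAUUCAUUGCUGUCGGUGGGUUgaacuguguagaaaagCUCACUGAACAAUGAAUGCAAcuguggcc

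The libraries held between 4183333 and 9842050 counts. Levels are given as CPM, the counts per M counts of the library after TMM scaling, which takes most miRNAs to be equal between libraries. The limit that 3 counts allow was between 0.315 and 0.549 CPM and covers counting error only, since PCR copies of a read are not independent molecules. Saline replicate 2 stood apart. Its Spearman's correlation with the other saline libraries was 0.869 and 0.874 over 899 miRNAs, against 0.907 to 0.926 with the morphine libraries. Results that rest on it are therefore given with and without it.

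The miR-181 family was lower in the morphine group. Its summed level was 14913, 13444 and 16738 CPM in saline replicates 1, 2 and 3 and 7433, 5439.5 and 5451 CPM in morphine replicates 1, 2 and 3. Every morphine library was below every saline library. The family averaged 15032 ± 1651 CPM under saline and 6108 ± 1148 CPM under morphine (SD, n = 3 each). This 2.48-fold difference of the mean log2 levels had p = 0.1 in an exact two-sided permutation test, and with 3 libraries a group the test cannot give a smaller p. Without saline replicate 2 the difference in log2 level was -1.39, against -1.31 with all libraries.

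miR-181a-5p made up most of this total. Of the family's counts it took 80.4% ± 4.76 under saline and 66.3% ± 2.60 under morphine (SD, n = 3 each). The share of miR-181d-5p was 1.87%, 6.98% and 1.496% under saline and 11.4%, 14.3% and 12.8% under morphine, a mean of 3.45% ± 3.07 against 12.8% ± 1.49 (SD, n = 3 each). The groups did not overlap, and saline replicate 2 raised the saline mean, which was 1.68% without it. Family composition therefore differed between the groups as well as the total.

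**Figure D1:**
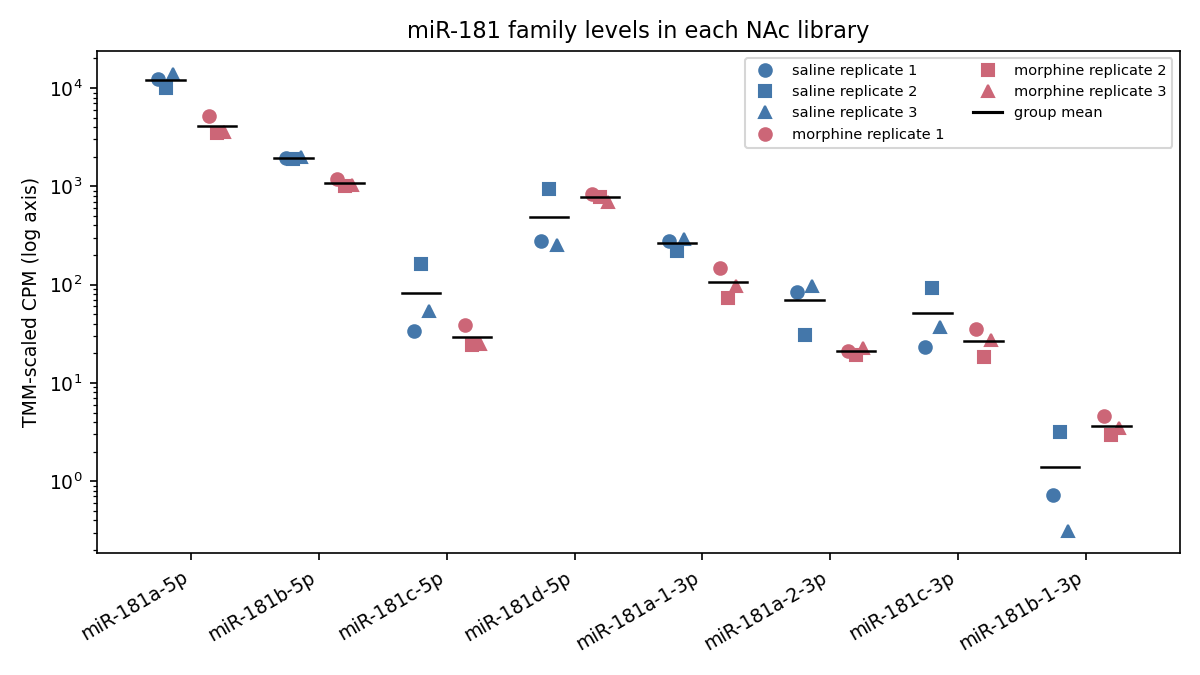
Level of each miR-181 miRNA with at least 100 counts in total, in TMM-scaled CPM on a log axis; symbols are single libraries, blue for saline and red for morphine, and black lines are group means of 3 libraries. The miR-181a arms and miR-181b-5p are lower in every morphine library, while for miR-181d-5p and miR-181b-1-3p saline replicate 2 (square) lies apart from the other saline libraries, near the morphine libraries.

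The study called a miRNA differentially expressed (DEmiRNA) where its log2 fold change was 0.58 or more in size and its p, before adjustment, was 0.05 or less. By edgeR's quasi-likelihood test over all 1364 miRNAs, 4 of the 9 miR-181 members met these criteria, all lower in the morphine group: miR-181a-5p, miR-181a-1-3p, miR-181a-2-3p and miR-181c-5p. Of all miRNAs tested, 9.68% met them in this direction. The 1364 include scarce miRNAs, and 544 of them have at least 100 counts. In the alternative fit of the 594 miRNAs kept by filterByExpr, edgeR's filter for scarce rows, 90 were called lower and 96 higher. Of the 8 members in that fit, 5 were called lower and 0 higher. The members share hairpins and are not independent of each other. The share of all miRNAs called in the opposite direction was also 9.68%, but no miR-181 member was among them, and 5 members were not called. The values of 4 members did not overlap between the groups, all of them lower, against 9.9% of all miRNAs. Over the 9 members the log2 fold change had a median of -0.92, and over all miRNAs tested a median of -0.15. With Benjamini-Hochberg adjustment over all miRNAs, 1 member, miR-181a-5p, had an adjusted p under 0.05, as did 2.13% of all miRNAs in this direction. Without saline replicate 2 the calls were split, with 4 members lower and 2, miR-181d-5p and miR-181b-1-3p, higher. Of the 1328 miRNAs in that fit, 214 were called lower and 278 higher.

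The balance of calls over all miRNAs depended on the scaling, on the block and on the libraries used. With TMM, 132 of the 264 miRNAs that met the criteria here were higher under morphine. The study's own list of DEmiRNAs was longer, and most of its entries were higher under morphine. In the fits made here the higher share of the calls was 34.9% with scaling to library totals and 37.7% with upper quartile scaling. That share was 61.5% with the replicate number as a block, and between 49.3% and 59.7% when a library was left out. The median log2 fold change of all miRNAs moved to -0.40 with library totals and to -0.35 with the upper quartile. The members' changes are therefore also given relative to this median.

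**Figure D2:**
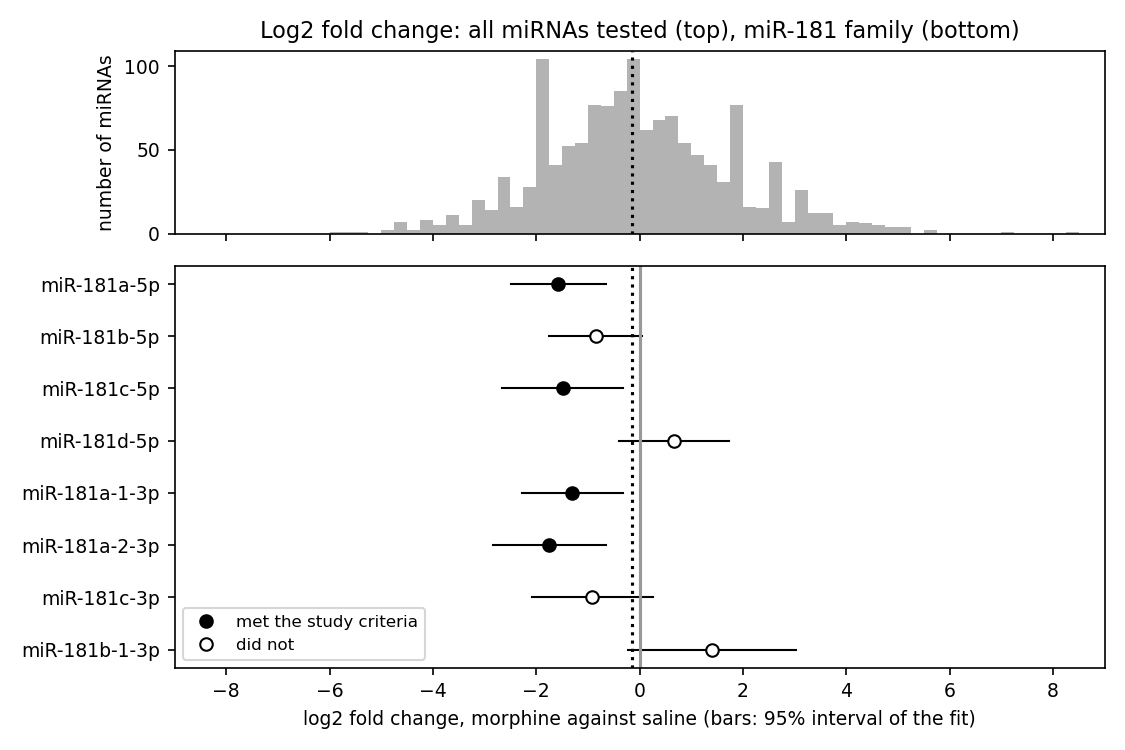
Log2 fold change of morphine against saline for all 1364 miRNAs tested (top, number of miRNAs per bin of 0.25) and for the 8 miR-181 members with at least 100 counts (bottom, bars are 95% intervals of the edgeR fit). The dotted line is the median of all miRNAs, -0.15; filled points met the study's criteria, and the 4 filled points lie at or below -1.31.

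Among the guide strands, miR-181a-5p, the most abundant member in both groups, fell 2.98-fold. Saline replicates 1, 2 and 3 held 67106, 67180 and 133757 counts of it, and morphine replicates 1, 2 and 3 held 46556, 23949 and 22607. Scaled for depth, no morphine library reached the lowest saline library. It averaged 12129 ± 1981 CPM under saline and 4069.8 ± 936 CPM under morphine (SD, n = 3 each). The quasi-likelihood test of edgeR gave a log2 fold change of -1.58 (SE 0.44, Benjamini-Hochberg adjusted p = 0.0437). It ranked 14th, 24th and 14th among the 1364 miRNAs in the saline libraries and 27th, 39th and 42nd in the morphine libraries, an order that no scaling changes. The call by the study's criteria held in all 15 alternative settings. In the same edgeR test the adjusted p ranged from 3.1e-12 without saline replicate 2 to 0.28 without morphine replicate 2. Over all miRNAs, 386 of 1328 had an adjusted p under 0.05 without saline replicate 2, and 37 of 1336 without morphine replicate 2.

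miR-181b-5p, which has the same seed, was next in abundance. It was at 1934, 1919 and 1983 CPM under saline and at 1189.8, 1012 and 1029 CPM under morphine. The groups did not overlap, and the saline libraries lay close together. The edgeR fit gave a log2 fold change of -0.85 (SE 0.44, 95% interval -1.76 to 0.05, adjusted p = 0.301), which did not meet the study's criteria with TMM. It met them in 7 of 15 alternative settings, among them the other 3 scalings. Without saline replicate 2 its log2 fold change was -0.86.

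miR-181c-5p, a minor guide strand from chromosome 8, had 184, 1073 and 517 counts under saline and 355, 166 and 158 counts under morphine. Scaled, this was 33.7, 160.9 and 54.2 CPM against 39.3, 24.3 and 24.8 CPM. The groups overlapped, and saline replicate 2 was far above the other saline libraries. The edgeR fit gave a log2 fold change of -1.49 (standard error 0.57, adjusted p = 0.138), and the call rested on that library, since the log2 fold change was -0.58 without it, with an unadjusted p of 0.101. The call was also lost without any one of the 3 morphine libraries and with the replicate number as a block.

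miR-181d-5p, from the same chromosome 8 cluster, was the one guide strand with a higher mean in the morphine group. Its counts were 1524, 6259 and 2387 under saline and 7641, 5327 and 4435 under morphine. In CPM, saline replicates 1 and 3 were at 278.9 and 250.4, saline replicate 2 was at 938.7, and the morphine libraries were at 845.3, 780.5 and 696.4. The spread of the saline group covered the morphine values, with a log2 fold change of 0.66 (SE 0.52, 95% interval -0.41 to 1.73, adjusted p = 0.522 with edgeR). Without saline replicate 2 the groups did not overlap and the log2 fold change was 1.55 (adjusted p = 9.7e-08 with edgeR). That fit gave 386 of 1328 miRNAs an adjusted p under 0.05. Over all 15 alternative settings the log2 fold change of miR-181d-5p stayed between 0.44 and 1.55, and the adjusted p ranged up to 0.774.

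The passenger strands of the miR-181a hairpins fell along with their guide. miR-181a-1-3p, from chromosome 1, was at 275.7, 222.3 and 288.5 CPM under saline and at 147.5, 73.4 and 96.9 CPM under morphine. The edgeR fit gave it a log2 fold change of -1.31 (standard error 0.47, adjusted p = 0.106), and the groups did not overlap. The call was lost without morphine replicate 2 or morphine replicate 3, at log2 fold changes of -1.08 and -1.25. miR-181a-2-3p, from chromosome 2, was at 83.8, 31.04 and 96.9 CPM under saline and at 21.1, 19.05 and 22.8 CPM under morphine. Saline replicate 2 was the lowest saline library but stayed above all morphine libraries. The log2 fold change of miR-181a-2-3p was -1.75 (SE 0.53, adjusted p = 0.0533 with edgeR), and its call held in all 15 alternative settings.

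The miR-181b passenger strands were scarce. miR-181b-1-3p had 4, 21 and 3 counts under saline and 42, 20 and 22 counts under morphine. Saline replicates 1 and 3 were far below the rest, and saline replicate 2 lay among the morphine libraries. The edgeR fit gave a log2 fold change of 1.40 (SE 0.78, 95% interval -0.22 to 3.02, adjusted p = 0.365). It was 2.89 without saline replicate 2 (adjusted p = 0.00013 with edgeR), where the remaining saline libraries hold 7 counts in all. Of all miRNAs in that fit, 386 of 1328 had an adjusted p under 0.05. miR-181b-2-3p was not counted under saline and had 3, 0 and 0 counts under morphine, which is at the limit of detection, so no fold is given.

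miR-181c-3p, from chromosome 8, was at 23.1, 93.1 and 36.7 CPM under saline and at 35.1, 18.5 and 27.3 CPM under morphine. As with its guide strand, saline replicate 2 was the highest library. The edgeR fit gave a log2 fold change of -0.92 (SE 0.56, 95% interval -2.09 to 0.25, adjusted p = 0.422), and it was -0.15 without saline replicate 2.

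The order of the levels was nearly the same in both groups. miR-181a-5p came first, then miR-181b-5p, then miR-181d-5p and then miR-181a-1-3p. In the saline group the values of miR-181d-5p and miR-181a-1-3p overlapped. Those of miR-181c-5p and miR-181a-2-3p overlapped there too, as did those of miR-181a-2-3p and miR-181c-3p. In the morphine group miR-181d-5p was separate from miR-181a-1-3p, at 774.1 against 105.9 CPM on average. There the neighbours miR-181c-5p and miR-181c-3p overlapped, as did miR-181c-3p and miR-181a-2-3p. Every mature miRNA has nearly the same length, so CPM needs no length term, but sequences can differ in how well they are ligated and amplified, and levels of different members are compared with that limit.

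Ratios of 2 members within a library do not depend on how libraries are scaled. In all, 9 ratios were computed, 4 planned and 5 added after the values were seen, and for 6 of them the groups did not overlap. Their two-sided p of 0.1 (exact permutation test) is the smallest the design allows. The planned ratios among them were miR-181a-5p to miR-181b-5p and miR-181c and d to miR-181a and b. Their p became 0.2 with Benjamini-Hochberg adjustment over the 4 planned ratios. For the added ratios the p is a description, since they were chosen from these values. Adjustment over all 9, which gave 0.15, does not correct for that choice.

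There were 6.35, 5.25 and 7.08 counts of miR-181a-5p for each count of miR-181b-5p under saline and 4.33, 3.47 and 3.45 under morphine. The ratio was 1.66-fold lower in the morphine group, and lower in 3 of 3 morphine libraries than in any saline library. miR-181a-5p and miR-181b-5p come from the same 2 clusters, so the members of shared clusters differed unequally between the groups.

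The chromosome 8 cluster took a larger part of the family in the morphine group. The summed counts of miR-181c and miR-181d were 0.0230, 0.0974 and 0.0208 of those of miR-181a and miR-181b under saline and 0.141, 0.178 and 0.159 under morphine. The mean log2 ratio differed by 2.14 between the groups, and by 2.86 without saline replicate 2. Most of these counts are of miR-181d-5p.

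Within that cluster the guide strands parted. There were 8.26, 5.83 and 4.61 counts of miR-181d-5p for each count of miR-181c-5p under saline, and 21.5, 32.0 and 28.0 under morphine, a 4.42-fold higher ratio. Here saline replicate 2 lay between the other saline libraries, and without it the log2 difference was 2.12, against 2.15 with it. Against miR-181b-5p, which differs from it by C12U, miR-181d-5p had 0.144, 0.489 and 0.126 counts for each count under saline and 0.71, 0.771 and 0.677 under morphine. The share was not constant between libraries. For miR-181c-5p and miR-181a-5p the ratio overlapped between the groups.

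On chromosome 1, miR-181b-1-3p and miR-181a-1-3p come from neighbouring hairpins. For each count of miR-181b-1-3p there were 334.8, 69.0 and 786.1 counts of miR-181a-1-3p under saline and 31.4, 24.5 and 27.4 under morphine. The log2 difference of this ratio was 3.25, from very few counts of miR-181b-1-3p, and 4.22 without saline replicate 2.

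The balance between the summed arms of the family and that between the miR-181a loci did not separate the groups. The 5p arms together had 37.9, 37.4 and 38.6 counts for each 3p count under saline and 34.6, 46.8 and 35.2 under morphine (exact permutation test, two-sided p = 1). This 3p sum holds no arm of Mir181d, while the 5p sum includes miR-181d-5p. miR-181a-1-3p had 3.29, 7.14 and 2.98 counts for each count of miR-181a-2-3p under saline and 6.96, 3.84 and 4.24 under morphine (exact permutation test, two-sided p = 0.6). With a log2 SD of 0.69 in the saline group and 0.46 in the morphine group, a shift between the loci smaller than this spread could not be seen. For miR-181c the guide had 1.46, 1.73 and 1.48 counts for each passenger count under saline and 1.12, 1.32 and 0.908 under morphine, without overlap.

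**Figure D3:**
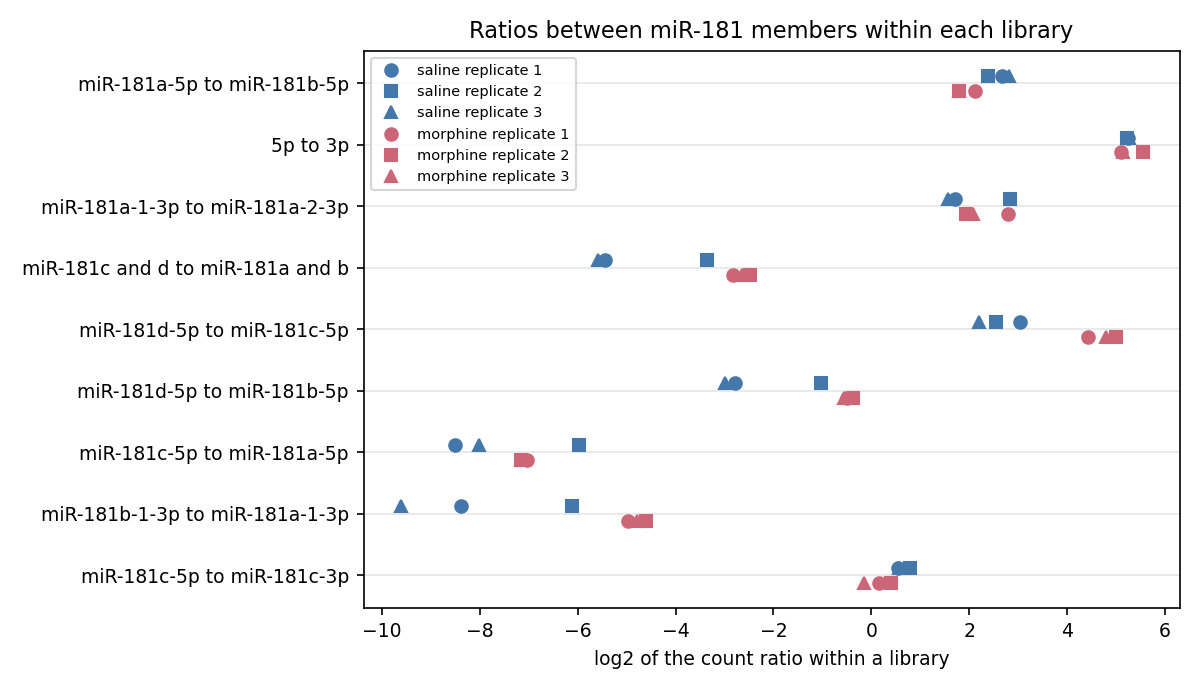
Log2 of the count ratio of 2 miR-181 members, or 2 sums of members, within each library (0.5 counts added to each term); blue symbols are saline and red symbols morphine libraries. The groups are apart in 6 of the 9 rows, by the widest mean log2 difference, 3.25, for miR-181b-1-3p to miR-181a-1-3p, and overlap for the 5p to 3p arms, for the miR-181a loci and for miR-181c-5p to miR-181a-5p.

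Relative to the median of all miRNAs, the directions of the 8 members with at least 100 counts were the same in the reported fit and all 15 alternative settings. A change of scaling moves the members and the median nearly alike, so agreement between scalings follows from this measure. On the log2 scale miR-181a-5p lay between -1.90 and -1.29 from that median, and miR-181a-2-3p between -2.31 and -1.39. miR-181d-5p was above it by between 0.41 and 1.35, and miR-181b-1-3p by between 0.96 and 2.69. The positions of miR-181c-5p and miR-181c-3p moved nearest to the median without saline replicate 2, to -0.78 and -0.35 from it.

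**Figure D4:**
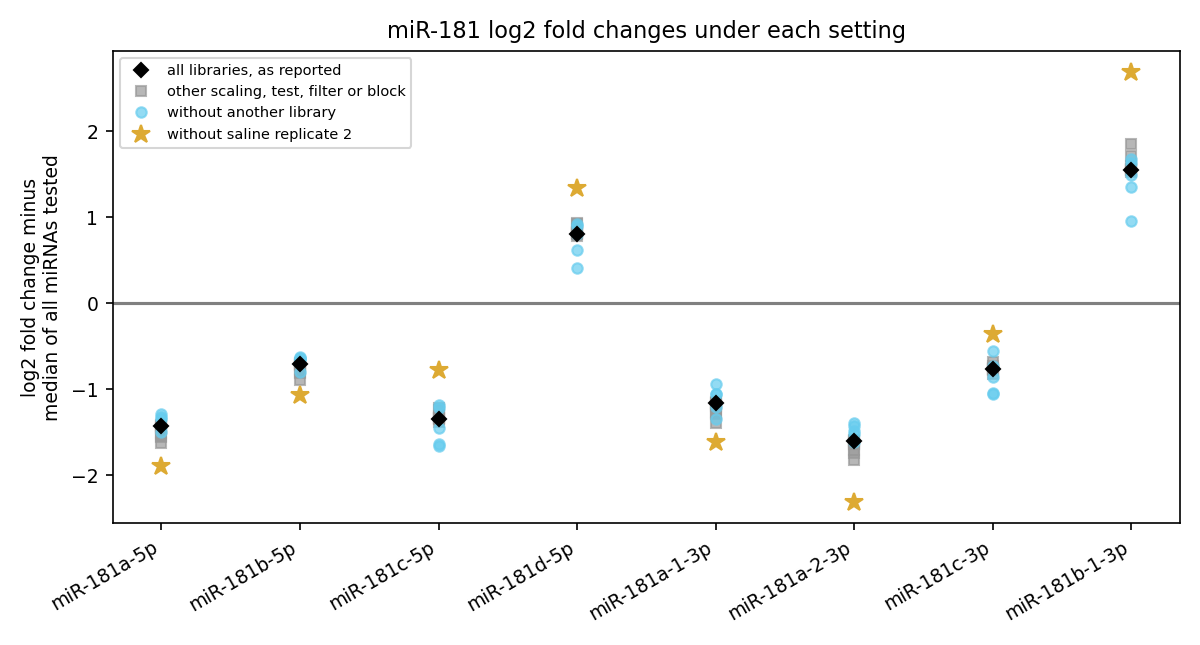
Log2 fold change of each miR-181 member minus the median of all miRNAs tested, in the reported fit (diamonds), with each library left out and under other scalings, tests, filters and the replicate block. Every point of miR-181d-5p and miR-181b-1-3p is above 0 and every point of the other 6 members is below; leaving out saline replicate 2 (stars) gives the lowest or the highest point for each of the 8 members.

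Among all miRNAs with a sequence, those richer in G and C bases had lower log2 fold changes. miR-181b-1-3p and miR-181d-5p, which had positive log2 fold changes, have the lowest shares of G and C bases of the 8 members, 38.1% and 43.5%. The other 6 members have between 45.5% and 59.1%. The gap to the next member is small, since miR-181d-5p and miR-181c-5p both have 10 G and C bases, in lengths of 23 and 22. Their log2 fold changes were 0.66 and -1.49. miR-181a-2-3p and miR-181c-3p, both at 59.1%, had log2 fold changes of -1.75 and -0.92. Of 544 miRNAs with at least 100 counts, 464 (85.3%) had a RefSeq sequence. Across these, which share the same 6 libraries, Spearman's correlation of the G and C share with the log2 fold change was -0.32. The median log2 fold change was 0.42 for the 80 miRNAs under 40%, 0.25 for the 165 from 40% to under 50%, -0.31 for the 144 from 50% to under 60% and -0.92 for the 75 at 60% or more. Set against the median of its own band, the log2 fold change differed by -1.83 for miR-181a-5p, -1.75 for miR-181c-5p and -1.44 for miR-181a-2-3p. It differed by 0.41 for miR-181d-5p and by 0.98 for miR-181b-1-3p. The part of base composition in the members' results was not tested.

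**Figure D5:**
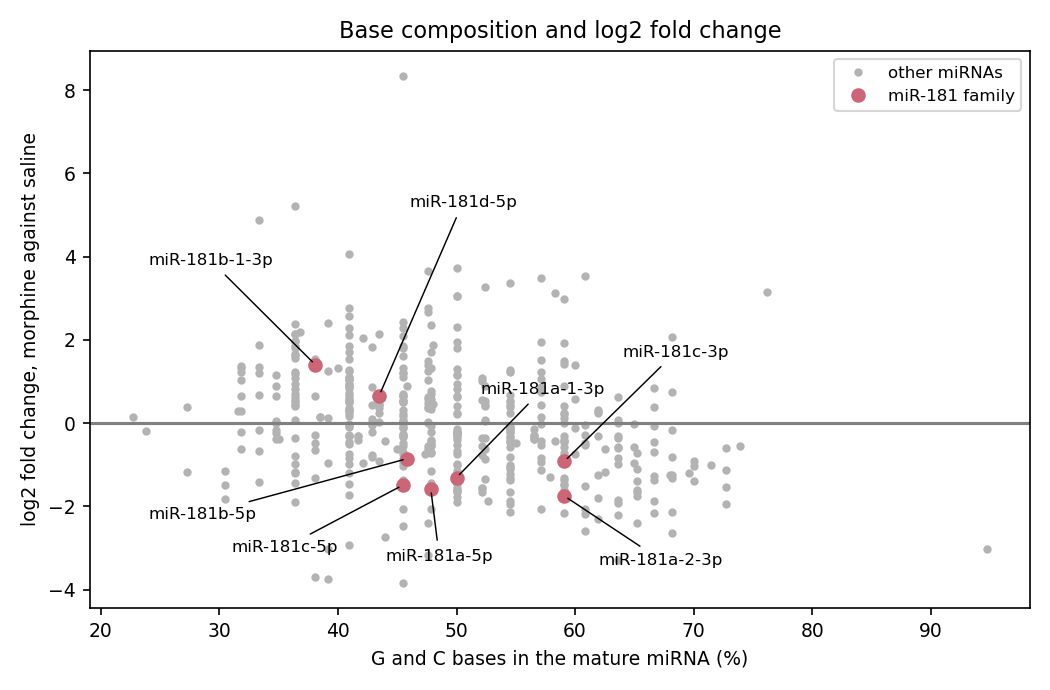
Share of G and C bases in the mature sequence against log2 fold change for 464 miRNAs with at least 100 counts; red points are the 8 miR-181 members. miRNAs rich in G and C lie lower, and the 2 miR-181 members above 0 have the lowest shares of the family.

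Markers of cell types in the dissected tissue were read beside these values. All 28 marker miRNAs were listed, of which 8 were called higher and 3 lower under morphine, against 9.68% of all miRNAs in each direction. None was at 3 counts or fewer in every library. Each class was summed over its markers, and in several classes a single miRNA carried the sum.

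The 2 neuronal markers went opposite ways. miR-124-3p was at 5098, 4495 and 7795 CPM under saline and at 1729.9, 1324 and 1654 CPM under morphine, with a log2 fold change of -1.88 (adjusted p = 0.0195 with edgeR). miR-128-3p was not called, at a log2 fold change of 0.47 (adjusted p = 0.584 with edgeR), and carried the neuronal sum, which was between 59602 and 72868 CPM under saline and between 69389 and 106220 CPM under morphine. The sum of 3 oligodendrocyte markers, at 1819.8 to 1903 and 1572 to 1963 CPM, was mostly miR-219a-2-3p, with a log2 fold change of 0.01. Of this class miR-219a-5p was called lower, and its groups overlapped, at 2.75, 63.9 and 2.41 CPM under saline and 3.98, 0.733 and 0.471 CPM under morphine.

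The sum of 2 endothelial markers did not overlap, at 1485 to 5002 CPM under saline and 10984 to 16264 CPM under morphine. It was nearly all miR-126a-3p, which was called higher (log2 fold change 2.42), while miR-126a-5p overlapped between the groups and had a log2 fold change of -0.96. The sum of 3 erythrocyte markers was likewise apart, at 207.6 to 311.0 and 357.7 to 570.7 CPM. Only miR-451a of the 3 was called higher, at a log2 fold change of 1.57, and the groups overlapped for miR-486a-5p (-0.20) and miR-144-3p (-1.31).

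The sums of the other classes overlapped between the groups. Microglial and leukocyte markers were at 13.2 to 58.2 CPM in the saline and 15.1 to 24.3 CPM in the morphine libraries, and none was called. Ependymal and choroid plexus markers were at 73.2 to 874.8 and 274.4 to 412.7 CPM, mostly miR-34c-5p, and of these miR-34b-3p was called higher without overlap (log2 fold change 1.21). Muscle markers were at 72.4 to 970.3 and 444.4 to 553.5 CPM, mostly miR-1a-3p, and of these miR-206-3p was called lower without overlap (log2 fold change -2.06). Epithelial markers were at 8.6 to 37.5 and 31.1 to 238.6 CPM, with 3 called higher, and markers of olfactory bulb and retina at 25.6 to 61.8 and 44.2 to 337.2 CPM, with 2 called higher. Morphine replicate 1 held the highest epithelial and olfactory bulb sums, and saline replicate 2 the highest microglial, ependymal and muscle sums. The part of these cell types in the miR-181 results was not tested.

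Of 10 other miRNAs studied in striatal drug reward, all 10 were measured, and 1 was called lower and 0 higher. Over all miRNAs tested, 9.68% were called in each direction. The median log2 fold change of the 10 was -0.18, against -0.15 over all miRNAs. The one called was miR-124-3p, which is also in the marker list.

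The miRNAs with levels most like those of miR-181a-5p over the 6 libraries were sought among 531 others with at least 100 counts, by Pearson's r of log2(CPM + 1). These were miR-425-3p and miR-339-5p, both with r = 0.987, miR-700-5p with r = 0.981, miR-124-3p with r = 0.979 and miR-29b-2-5p with r = 0.978. All 5 were lower in every morphine library than in every saline library, so r holds the gap between the groups as well as the spread within them.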

How the data were processed

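Small RNA libraries of the NAc of 3 saline and 3 morphine samples were analysed, grouped by the sample records. The authors removed low-quality reads and reads outside 15 to 35 nt, used Bowtie to discard reads of other RNA classes and of repeats, and matched what remained to miRBase. Whether strand was used, the number of mismatches allowed and the genome build are not given in the sources used here. Every result comes from the deposited counts, raw reads for each mature miRNA. The deposited TPM values equal count per M counts of the library, and no test used them. 0 columns were left unused.

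Counts of all 1364 miRNAs with at least 1 count were scaled by TMM and fitted in edgeR 4.0.16 (R 4.3.3), where groups were compared by the quasi-likelihood test without covariates. Calls used the study's criteria and, separately, an adjusted p (Benjamini-Hochberg) under 0.05. The fit also gave standard errors and 95% intervals. Totals and within-library ratios (0.5 counts added) were compared with exact two-sided permutation tests (SciPy 1.17.1). The alternatives were RLE, library total and upper quartile scaling, DESeq2 1.42.0, the edgeR exact test, filterByExpr, a minimum of 10 counts, removal of the 10 most abundant miRNAs, a replicate block and leaving out each library. The fit was run on simulated counts drawn independently for each library. No simulated library stood apart as saline replicate 2 does, so that run cannot show how the fit behaves with such a library. Sequences and hairpin positions are from RefSeq (GRCm38.p6) and host genes from GENCODE vM21, not from the authors' table.

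Every family member is named, with the 5 miRNAs most like miR-181a-5p. Members, marker lists and the drug reward list were chosen with earlier results of these data known. miR-124-3p is in 2 lists.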

Additional observations from a re-analysis of the deposited data

How the results depend on the processing

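The family total kept its direction in all 10 alternative settings, between -1.62 and -1.23 on the log2 scale. Since the totals did not overlap between the groups, leaving out a library could not reverse it. The replicate block leaves this difference unchanged by construction, so only the other scalings could have reversed it. The number of members meeting the study's criteria ranged from 2 to 6 when a library was left out. It was 2 without morphine replicate 2 or morphine replicate 3 and 6 without saline replicate 2. Of these 6, 4 were lower and 2, miR-181d-5p and miR-181b-1-3p, were higher. The number with an adjusted p under 0.05 was 2 with RLE scaling, 3 with library totals, 4 with the upper quartile, 4 with DESeq2, 0 with a minimum of 10 counts and 0 with the replicate block, and ranged from 0 to 6 when a library was left out. The number over all miRNAs moved as well, from 71 to 94, 160, 153, 156, 28 and 32 in these 6 settings, and to between 0 (without morphine replicate 1) and 386 (without saline replicate 2) when a library was left out. Over all miRNAs, 176 to 492 met the criteria when a library was left out. The cause of these moves was not tested. The fits that leave out a library have 5 libraries in place of 6.

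The groups share replicate numbers, and the sample titles give no pairing beyond the number. Same-numbered libraries deviated from their group means with correlations of -0.23, -0.285 and 0.139, and 1 of 6 libraries correlated best with its own number. Deviations from a mean of so few libraries are tied to each other, so this check cannot exclude a pairing. With the replicate block 179 miRNAs met the criteria, against 264.

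Leaving out libraries moved the log2 difference of the 5p to 3p ratio between -0.122 and 0.095, that of miR-181a-1-3p to miR-181a-2-3p between -0.0284 and 0.631 and that of miR-181c-5p to miR-181a-5p between -0.128 and 1.14, so these have no stable direction. In the other 6 ratios the groups did not overlap, so leaving out a library could not reverse them. A pseudocount of 1 reversed none of the 9. Depth limits miR-181b-1-3p and miR-181b-2-3p most.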
